A study of Homo sapiens with 4 samples.

Results

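Tubulin genes encode the building blocks of microtubules, and 10 of them were followed in 2 human prostate cancer lines treated with morusin, a prenylated flavonoid made by mulberry plants. The genes were chosen by name, as the rows whose Ensembl ID maps to TUBA1A, TUBA1B, TUBA1C, TUBB, TUBB2A, TUBB2B, TUBB3, TUBB4B, TUBB6 and TUBG1, and all 10 of the 10 were found among 60617 genes. The groups were 22Rv1 cells given 75 µM morusin, untreated 22Rv1 cells, PC3 cells given 46 µM morusin and untreated PC3 cells. The treatment lasted 6 h, and each group held 1 library. 22Rv1 is a xenograft-derived carcinoma line, and PC3 comes from a bone metastasis. The lines were also grown in different media (RPMI for 22Rv1, F12 for PC3), so line, dose and medium cannot be told apart. Levels are FPKM, fragments per kilobase of transcript scaled to each library's mapped total. A change is log2 of (morusin FPKM + 1) over (untreated FPKM + 1), a scale on which low genes seem to differ less than they do.

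A microtubule is a hollow polymer of paired alpha- and beta-tubulin, and gamma-tubulin sits in a ring complex that starts new microtubules. Humans carry several alpha and beta genes (isotypes) whose proteins differ most in an acidic tail at the carboxyl end, where enzymes add or remove residues. Cells also control alpha- and beta-tubulin mRNA by feedback: when free dimers are in excess, the factor TTC5 recognises the first residues of the nascent chain on the ribosome, and SCAPER with the CCR4-NOT deadenylase then has the mRNA degraded. TUBB3 is the isotype best known from neurons and is often expressed in carcinomas, and beta-tubulin is the target of the taxanes used against prostate cancer.

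The starts of the coding sequences are shown because the feedback reads the residues they encode. They are taken from the GENCODE 29 transcripts on GRCh38. Capitals mark an arginine codon, the glutamate codon after it and the codon that follows.
TUBA1A: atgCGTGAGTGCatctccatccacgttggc
TUBA1B: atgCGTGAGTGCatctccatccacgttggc
TUBA1C: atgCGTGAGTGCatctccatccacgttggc
TUBB: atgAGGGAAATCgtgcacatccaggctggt
TUBB4B: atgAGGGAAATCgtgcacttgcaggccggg
TUBB3: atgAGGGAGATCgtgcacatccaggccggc
TUBB6: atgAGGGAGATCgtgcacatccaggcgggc
TUBB2A: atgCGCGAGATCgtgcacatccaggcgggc
TUBB2B: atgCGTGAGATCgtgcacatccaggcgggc
TUBG1: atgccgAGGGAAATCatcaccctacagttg
The 3 alpha genes were identical over these 30 bases. TUBB and TUBB4B shared the same marked codons, which begin at codon 2. In TUBG1 the same 9 letters begin at codon 3, behind an extra codon.

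The ends of the beta-tubulin coding sequences are shown because isotypes are told apart there, and because reads from genes with like ends cannot be assigned to 1 gene. Each stretch is the last 60 bases before the stop codon, and capitals mark codons for glutamate.
TUBB: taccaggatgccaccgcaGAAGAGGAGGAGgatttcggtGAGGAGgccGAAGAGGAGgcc
TUBB4B: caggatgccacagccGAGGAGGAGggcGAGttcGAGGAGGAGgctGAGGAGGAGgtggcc
TUBB3: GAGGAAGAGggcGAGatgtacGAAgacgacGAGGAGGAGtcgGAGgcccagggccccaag
TUBB6: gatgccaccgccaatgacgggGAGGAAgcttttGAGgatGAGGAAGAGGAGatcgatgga
TUBB2A: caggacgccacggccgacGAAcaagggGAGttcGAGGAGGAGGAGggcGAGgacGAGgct
TUBB2B: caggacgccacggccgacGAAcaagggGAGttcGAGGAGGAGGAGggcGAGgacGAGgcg
TUBB2A and TUBB2B differed over these 60 bases by T60G (TUBB2A base, position from 1 at the 5′ end of the stretch, TUBB2B base). Of the 20 codons, 10 encode glutamate in TUBB4B, 9 in TUBB and 7 in TUBB6.

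Likeness between the genes bears on every value below. Over the whole coding sequence the alpha genes were 95.9% to 97.2% identical to each other, the beta genes 80.9% to 98.1%, and alpha and beta genes 52.9% to 55.7%. TUBG1 was 50.3% to 51.2% identical to the alpha genes and 53.0% to 54.9% to the beta genes. Windows of 150 bases, the read length, were searched for exact copies in transcripts of other genes. No window of TUBB4B or TUBB6 had a copy, and 2.5% of TUBB windows did. The share was 6.91% for TUBA1A, 6.77% for TUBA1C and 19.1% for TUBA1B, in each case with copies in the other alpha genes. For TUBB2A it was 49.4% and for TUBB2B 39.4%, led by each other, so the split of reads between these genes is uncertain. For TUBB3 it was 88.7%, led by an unnamed readthrough row (AC092143.1 in GENCODE) that covers 89.5% of its exonic bases on the same strand. That row held 0.349 FPKM in treated and 0 in untreated 22Rv1, and 0.268 FPKM in treated and 0 in untreated PC3, so nearly all signal at the locus was assigned to TUBB3.

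Overlaps on the other strand matter too, because the sources used here do not say if counting was stranded, and reads of a gene and its antisense partner cannot then be told apart. An antisense gene, TUBA1B-AS1, covers 72.6% of the exonic bases of TUBA1B (chr12:49127782-49131397) and was listed at 0.805 to 1.49 FPKM in the 4 libraries. TUBA1A (chr12:49184796-49189324) shares 13% of its exonic bases with TUBA1C (chr12:49188736-49274603), which lies on the opposite strand. TUBG1 (chr17:42609676-42615234) shares 6.58% with RETREG3, at 5.17 to 12.6 FPKM.

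Depth and identity checks came first. Depths inferred from low values were 19.1 and 23.45 M read pairs (M, mega) in treated and untreated 22Rv1 and 28.65 and 40.55 M in treated and untreated PC3, and are rough. The counting errors given below rest on these depths, are on the log2 scale, leave out the added 1 and cover sampling of reads alone. All 8 prostate luminal markers reached 1 FPKM in both 22Rv1 libraries, and their summed FPKM was 751 treated and 765 untreated. In PC3, 3 of the 8 reached 1 FPKM and 3 were at 0 in each library, and the sum was 4.85 FPKM treated and 6.76 FPKM untreated. KRT8 and KRT18, keratins of simple epithelia, were between 103 and 137 FPKM in all 4 libraries, and CDH1 (E-cadherin) was at 0.144 FPKM in treated and 0.19 FPKM in untreated PC3. The 11 leukocyte, fibroblast and endothelial markers summed to 3.37 FPKM in treated and 2.94 FPKM in untreated 22Rv1, and to 42.5 FPKM in treated and 30.5 FPKM in untreated PC3, where CD68, a lysosomal protein, was at 39.9 FPKM treated and 26.0 FPKM untreated. KRT8 and the PC3 values of CDH1 were chosen after they were seen.

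TUBA1B was the main alpha-tubulin mRNA in every library. It was at 1476 FPKM in treated and 1735 FPKM in untreated 22Rv1, and at 896 FPKM in treated and 1018 FPKM in untreated PC3, and it ranked between 14 and 35 among all genes. It made up 87.3% of the summed alpha FPKM in treated and 88.1% in untreated 22Rv1, and 76.4% in treated and 73.6% in untreated PC3. TUBA1C took 8.24% in treated and 6.94% in untreated 22Rv1, and 17.5% in treated and 18.9% in untreated PC3, most of the rest in both lines. In FPKM, TUBA1C was at 139 in treated and 137 in untreated 22Rv1, and at 205 in treated and 261 in untreated PC3. TUBA1A, the alpha isotype of developing neurons, took 4.42% to 7.47% of the alpha sum in the 4 libraries.

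Among the beta genes, TUBB led and TUBB4B came next in all 4 libraries. TUBB was at 507 FPKM in treated and 655 FPKM in untreated 22Rv1, and at 979 FPKM in treated and 786 FPKM in untreated PC3. TUBB4B was at 402 FPKM in treated and 455 FPKM in untreated 22Rv1, and at 321 FPKM in treated and 393 FPKM in untreated PC3. TUBB therefore exceeded TUBA1B in treated PC3 alone, and it was below TUBA1B in the other 3 libraries. TUBB3 made up 9.0% of the beta sum in treated and 7.68% in untreated 22Rv1, and 5.84% in treated and 4.76% in untreated PC3. TUBB6, a widely expressed minor isotype, took 1.91% to 3.16%. It was at 32.9 FPKM in treated and 31.1 FPKM in untreated 22Rv1, and at 29.1 FPKM in treated and 24.6 FPKM in untreated PC3.

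The low beta genes were TUBB2A and TUBB2B. TUBB2A was at 5.39 FPKM in treated and 4.94 FPKM in untreated 22Rv1, and at 23.3 FPKM in treated and 17.5 FPKM in untreated PC3. TUBB2B was at 1.89 FPKM in treated and 2.04 FPKM in untreated 22Rv1, and at 5.92 FPKM in treated and 4.05 FPKM in untreated PC3. In 22Rv1 the TUBB2B values rest on about 72.8 pairs treated and 96.5 pairs untreated. The middle of the order was crowded: in untreated 22Rv1, TUBA1A at 98.6 FPKM and TUBB3 at 95.5 FPKM rested on about 4429 and 3963 pairs and were close neighbours, whereas in treated 22Rv1 TUBG1 at 97.7 FPKM and TUBB3 at 93.8 FPKM both stood above TUBA1A at 74.7 FPKM.

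**Figure D1:**
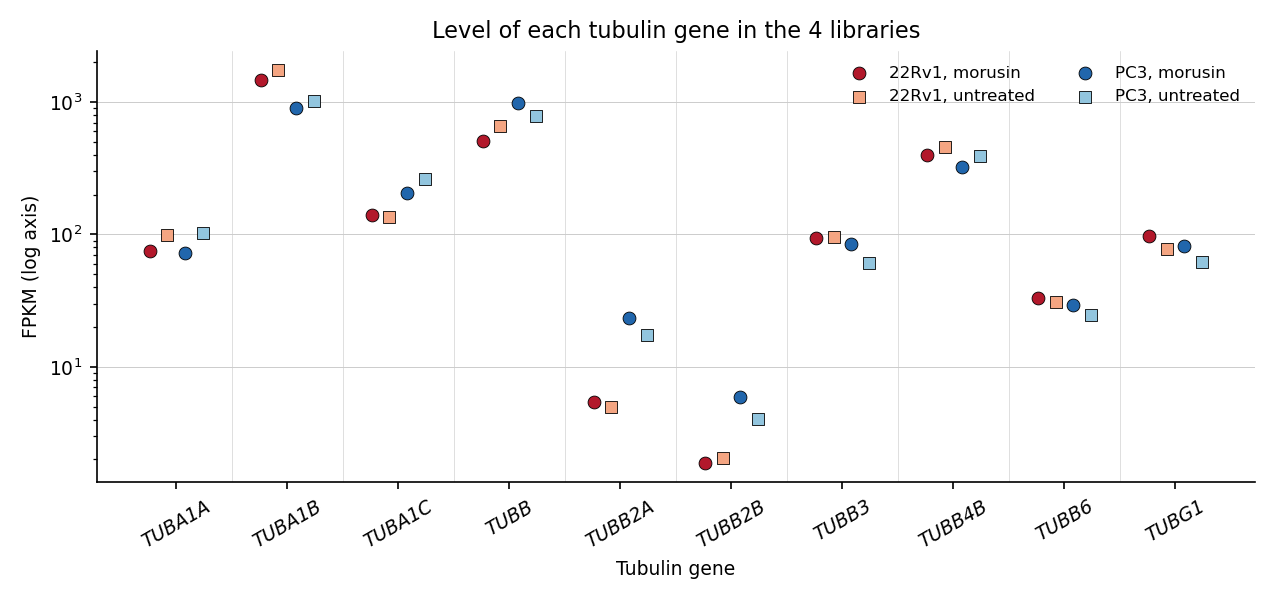
FPKM (log axis) of each of the 10 tubulin genes in the 4 libraries, with circles for morusin-treated and squares for untreated cells, 1 library per point. TUBA1B was highest in 3 libraries and TUBB in treated PC3 (979 FPKM), and TUBB2B was lowest in all 4 libraries, between 1.89 and 5.92 FPKM.

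Some of the tubulin genes differed in level between the lines. In the untreated libraries, 1 tubulin gene (TUBB2A) was at least 2-fold lower in 22Rv1 and 0 at least 2-fold higher, beside 19.2% of all genes lower and 19.8% higher. For a test, limma was fitted to log2(FPKM + 1) of all 4 libraries with a line term and a treatment term, and p-values were adjusted by Benjamini-Hochberg over 13980 genes. A line here is a treated and an untreated library, so the test measures the spread left after those terms and not that between separate cultures. Of the 10 tubulin genes, 1 was called higher in 22Rv1 and 4 lower. In the same term 36.1% of all genes were called higher and 28.3% lower, 64.4% in either direction, so a called difference between these lines was common.

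TUBA1B was the gene higher in 22Rv1, with a log2 difference of 0.74 ± 0.17 (SE) and an adjusted p of 0.0047 in limma. TUBA1C had a difference of -0.74 ± 0.19 with an adjusted p of 0.0065 in limma, so these alpha isotypes differed between the lines in opposite directions. TUBB2A had the widest gap, at -1.78 ± 0.21 with an adjusted p of 8.2e-05 in limma. TUBB2B was at -0.998 ± 0.22 and TUBB at -0.61 ± 0.21, with adjusted p-values of 0.0036 and 0.029 in limma. The remaining 5 genes had adjusted p-values from 0.11 for TUBB3 to 0.98 for TUBA1A in limma. TUBA1A was at 74.7 FPKM in treated 22Rv1 and 71.9 FPKM in treated PC3, and at 98.6 FPKM in untreated 22Rv1 and 103 FPKM in untreated PC3. Without the filter on low genes only TUBB2A kept an adjusted p under 0.05.

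Morusin came with small differences in tubulin mRNA in 22Rv1. The summed FPKM of the 10 genes was 2830 in treated and 3292 in untreated 22Rv1, a ratio of 0.86. The summed alpha FPKM was 1690 treated against 1971 untreated, and the summed beta FPKM 1042 treated against 1244 untreated. Both families were lower by like amounts, with log2 ratios of -0.22 for alpha and -0.25 for beta (counting error 0.0079 and 0.009). As a share of the library's summed FPKM, the 10 genes made up 0.693% in treated and 0.924% in untreated 22Rv1. With 1 library per group these differences have no replicate check and no test was run.

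No tubulin gene was 2-fold higher or lower in treated 22Rv1, a size that 3.48% of 13361 genes reached upward and 1.02% downward. Of the 10 genes, 4 were above 0 and 6 below, beside 49.4% and 50.6% of all genes. The median change of the 10 genes was -0.05 and that of all genes -0.01. TUBA1A was lowest with a change of -0.40, followed by TUBB at -0.37, TUBA1B at -0.23 and TUBB4B at -0.18. TUBG1, the gamma-tubulin of the ring complex, was the highest, at 97.7 FPKM treated against 77.6 FPKM untreated, a change of 0.33 (counting error 0.037). Its change was 0.13 after rescaling to equal sums and 0.09 with the trend of change on transcript length removed. The other 5 genes lay between -0.07 and 0.11. Of these, TUBA1C (0.03), TUBB2A (0.11) and TUBB6 (0.08) turned negative when libraries were rescaled to equal sums, and TUBB2A and TUBB6 also did when the trend of change on transcript length was removed.

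In PC3 the summed alpha FPKM was lower and the summed beta FPKM higher with morusin. The summed alpha FPKM was 1172 in treated and 1383 in untreated PC3, a log2 ratio of -0.24 (counting error 0.0072). The summed beta FPKM was 1442 in treated and 1287 in untreated PC3, a log2 ratio of 0.16 (counting error 0.0062), which was 0.07 after rescaling to equal sums. TUBB was at 979 FPKM in treated and 786 FPKM in untreated PC3, a wider gap than that of the beta sum. The higher beta sum thus rested on TUBB. TUBB4B was lower, at 321 FPKM treated and 393 FPKM untreated, and the less abundant TUBB2A, TUBB2B, TUBB3 and TUBB6 were higher. The 10 genes together were nearly level, at 2697 FPKM treated and 2733 FPKM untreated. The ratio of alpha to beta FPKM within a library does not depend on library scaling. It was 1.62 in treated and 1.58 in untreated 22Rv1, and 0.813 in treated and 1.07 in untreated PC3. The log2 change of that ratio was 0.03 in 22Rv1 and -0.40 in PC3 (counting error 0.012 and 0.0095), and the difference between the lines was not tested, since it leaves no residual degrees of freedom.

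**Figure D2:**
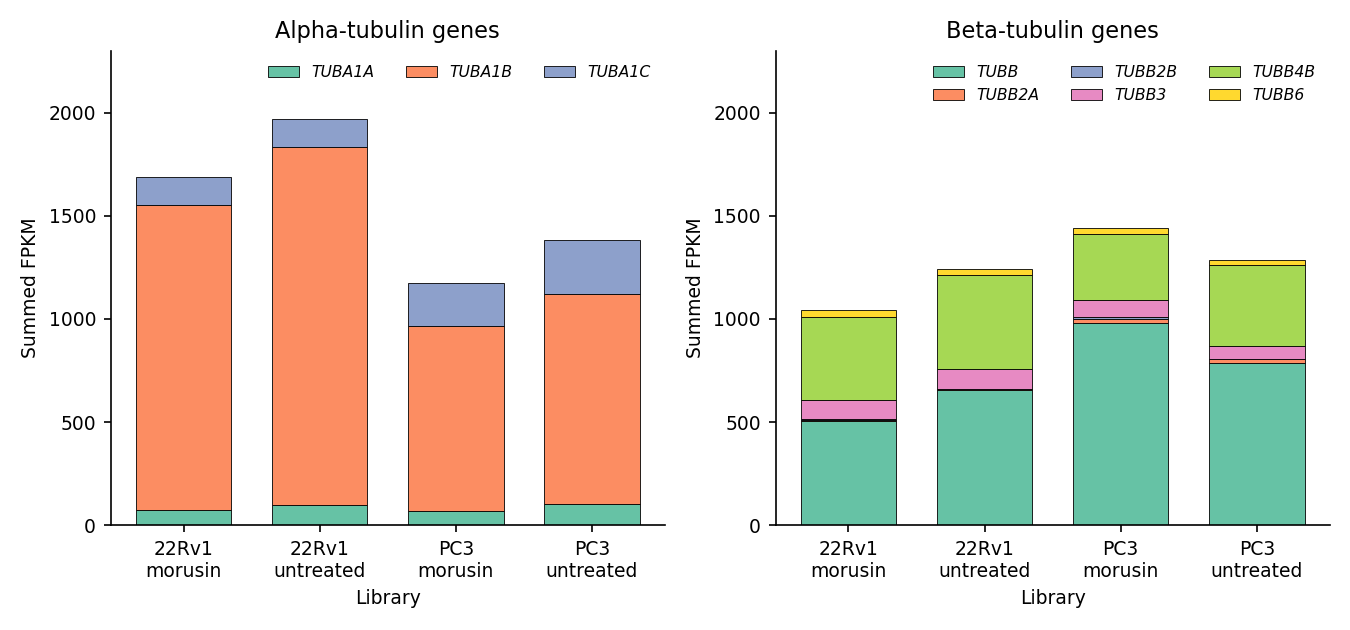
Summed FPKM of the alpha-tubulin genes (left) and beta-tubulin genes (right) in the 4 libraries, with 1 colour per gene and 1 library per bar. In PC3 the alpha bar was lower (1172 against 1383 FPKM) and the beta bar higher (1442 against 1287 FPKM) with morusin, while in 22Rv1 both bars were lower. The higher beta bar in PC3 rested on TUBB (979 against 786 FPKM).

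All 3 alpha genes were lower in treated PC3. TUBA1A was at 71.9 FPKM treated and 103 FPKM untreated, a change of -0.52. TUBA1C was at 205 FPKM treated and 261 FPKM untreated, a change of -0.35. TUBA1B had a change of -0.18. Of the beta genes, TUBB (0.32), TUBB2A (0.39), TUBB2B (0.45), TUBB3 (0.45) and TUBB6 (0.23) were higher, and TUBB4B was lower with a change of -0.29. TUBB3 was at 84.2 FPKM treated against 61.2 FPKM untreated.

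The pair of abundant beta genes lay on opposite sides of 0 in PC3. The ratio of TUBB to TUBB4B was 1.26 in treated and 1.44 in untreated 22Rv1, and 3.05 in treated and 2.0 in untreated PC3. TUBB made up 67.9% of the beta sum in treated PC3, against 61.1% in untreated PC3, and TUBB4B took 22.2% treated against 30.6% untreated. TUBG1 was again higher, at 82.5 FPKM treated against 62.5 FPKM untreated, a change of 0.39 (counting error 0.032). Its change in PC3 was 0.30 after rescaling to equal sums and 0.31 with the length trend removed. No tubulin gene was 2-fold higher or lower, a size that 1.24% of 12907 genes reached upward and 2.64% downward. Of the 10 genes, 6 were above 0 and 4 below, beside 44.2% and 55.8% of all genes. The median change of the 10 genes was 0.27 and that of all genes -0.05.

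**Figure D3:**
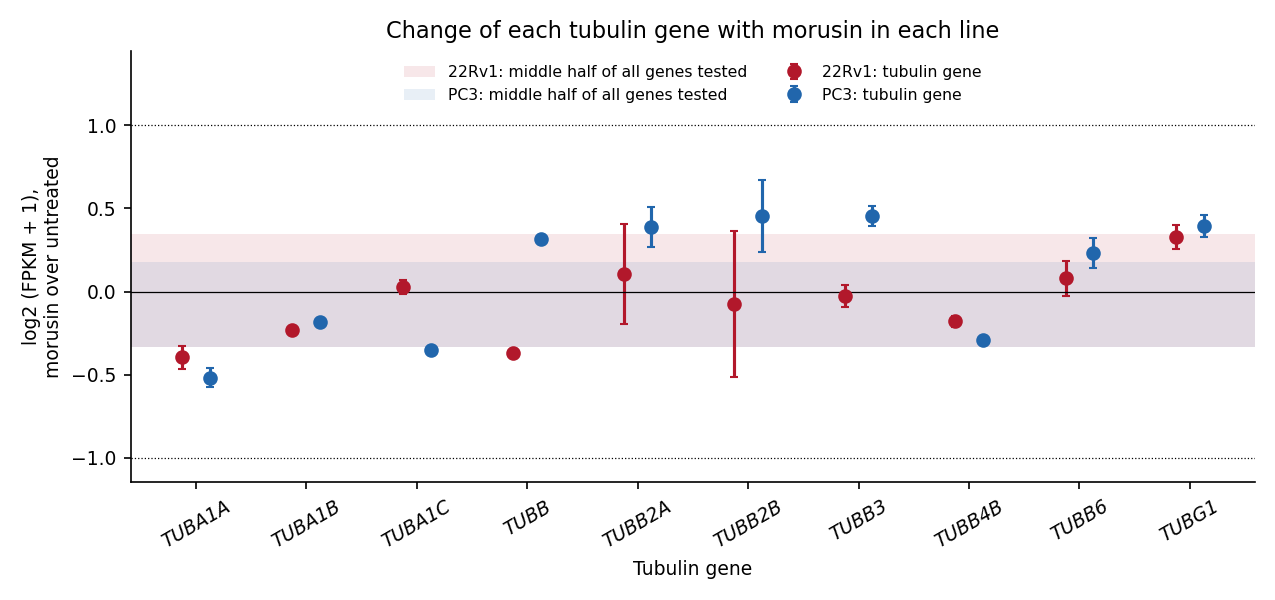
Log2 change (FPKM + 1, morusin over untreated) of each tubulin gene in 22Rv1 (red) and PC3 (blue), with bars of 1.96 counting errors, shaded bands for the middle 50% of all genes tested in each line and dotted lines at 2-fold. TUBB lay at -0.37 in 22Rv1 and 0.32 in PC3, and TUBG1 at 0.33 and 0.39.

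Set side by side, the lines gave 3 genes above 0 in both (TUBB2A, TUBB6 and TUBG1) and 3 below 0 in both (TUBA1A, TUBA1B and TUBB4B). Among all genes tested in both lines, 30.2% were above 0 in both and 37.7% below 0 in both. TUBB, TUBB2B and TUBB3 were below 0 in 22Rv1 and above 0 in PC3, a class that held 14.7% of all genes. For TUBB2B and TUBB3 the 22Rv1 changes of -0.07 and -0.03 were within 1.96 counting errors of 0, whereas both TUBB changes were beyond that. TUBA1C was above 0 in 22Rv1, by 0.03, and below 0 in PC3, as were 17.5% of all genes.

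The treatment term of the same limma fit asks for a response common to both lines, with the lines as blocks. None of the 10 tubulin genes passed an adjusted p of 0.05, and 1 (TUBA1A) had an unadjusted p under 0.05. In this test 0.351% of all genes were called higher and 0.236% lower, 0.587% in either direction. TUBA1A had a log2 effect of -0.46 ± 0.18 (SE) with an adjusted p of 0.23 in limma, and was lower in both lines. With libraries rescaled to equal sums its adjusted p was 0.032 in limma (0.032 to 1.0 over the alternatives), and that scaling moved the median of all genes to -0.18 in 22Rv1 and -0.14 in PC3. TUBG1 had an effect of 0.36 ± 0.18 with an adjusted p of 0.32 in limma, and was higher in both lines. TUBB, whose changes had opposite signs in the lines, had an effect of -0.03 ± 0.21 and an adjusted p of 0.95 in limma. The misses do not show that these genes did not change, given 1 library per group.

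**Figure D4:**
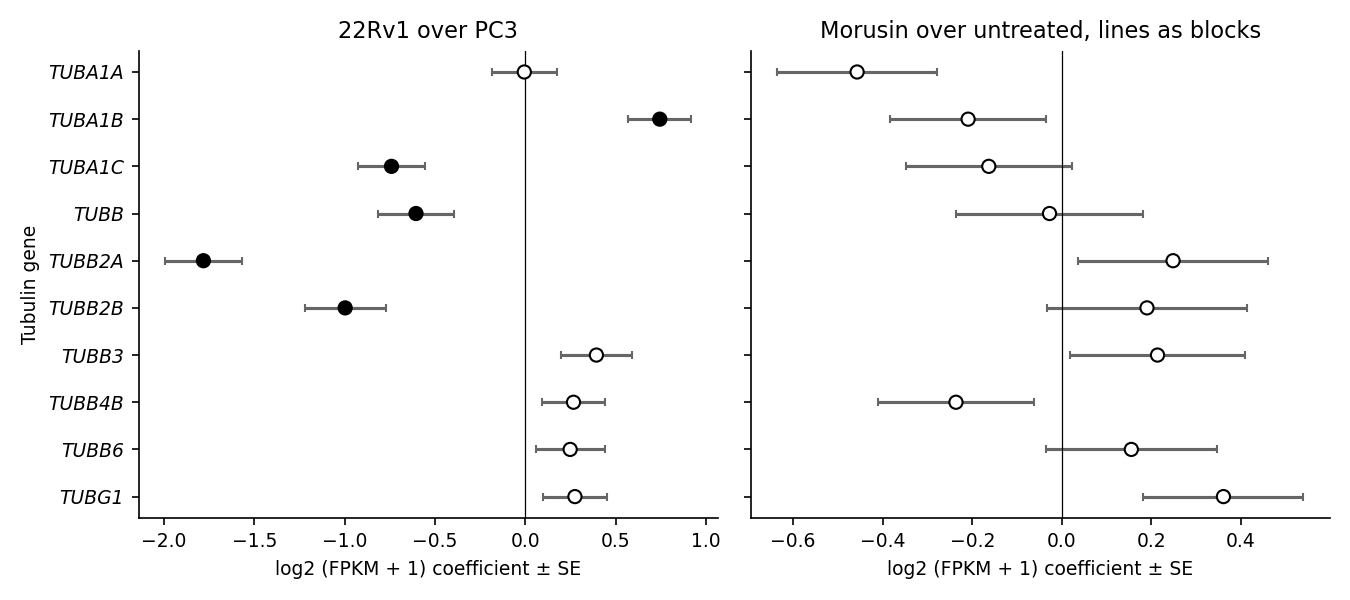
Coefficients of log2(FPKM + 1) from limma for the 10 tubulin genes, ± SE, for 22Rv1 over PC3 (left) and for morusin over untreated with the lines as blocks (right), with filled points for an adjusted p under 0.05. The left panel has 5 filled points, TUBA1B at 0.74 and TUBA1C, TUBB, TUBB2A and TUBB2B below 0, and the right panel has 0.

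Of the tubulin genes outside the 10, TUBB4A and TUBA4A were mainly seen in PC3. TUBB4A, a beta isotype best known from brain, was at 0.443 FPKM in treated and 0.574 FPKM in untreated 22Rv1, and at 61.1 FPKM in treated and 48.4 FPKM in untreated PC3. TUBA4A, an alpha isotype abundant in platelets, was at 4.0 FPKM in treated and 6.14 FPKM in untreated 22Rv1, and at 47.0 FPKM in treated and 41.2 FPKM in untreated PC3. The log2 differences of 22Rv1 over PC3 were -5.20 ± 0.23 for TUBB4A and -2.91 ± 0.23 for TUBA4A, with adjusted p-values of 2.8e-07 and 6.3e-06 in limma. TUBG2, the second gamma-tubulin gene, was at 21.2 FPKM in treated and 11.9 FPKM in untreated 22Rv1, a change of 0.78, and at 9.26 FPKM in treated and 7.24 FPKM in untreated PC3, a change of 0.32. TUBG2 was thus higher with morusin in both lines, like TUBG1, and 6.22% of the windows of TUBG1 have a copy in TUBG2. TUBD1 (delta-tubulin, of centrioles) was at 3.1 FPKM in treated and 7.13 FPKM in untreated PC3, a change of -0.99. TUBE1 (epsilon-tubulin) was at 12.5 FPKM in treated and 10.5 FPKM in untreated 22Rv1. Of the 65 further rows named as alpha-, beta- or gamma-tubulin genes, pseudogenes and antisense genes included, 9 reached 1 FPKM in any library. Besides TUBB4A, TUBA4A, TUBG2 and TUBA1B-AS1 these were TUBB8B and the pseudogenes TUBBP5, TUBA5P, TUBBP1 and TUBAP2, of which TUBBP5 was highest, at 7.4 FPKM in treated and 6.74 FPKM in untreated 22Rv1.

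Most genes that fold tubulin lay above 0 in treated 22Rv1. There 2 of 13 (PFDN5 and PFDN2) were at least 2-fold higher, beside 3.48% of all genes. The changes of both lay within 1.96 counting errors of 2-fold. Prefoldin passes new chains to the cytosolic chaperonin, and the cofactors TBCA to TBCE then pair alpha with beta. Of 13 such genes, 10 were above 0 and 3 below in 22Rv1 (median 0.63), and 9 were above 0 and 4 below in PC3 (median 0.14), beside 49.4% and 44.2% of all genes above 0. With the length trend removed the medians were 0.23 in 22Rv1 and 0.014 in PC3. The prefoldin subunit gene PFDN5 was at 233 FPKM in treated and 115 FPKM in untreated 22Rv1, a change of 1.01, and PFDN2 was at 177 FPKM treated and 87.9 FPKM untreated. TBCE, an alpha-tubulin cofactor, had a change of 0.98 in 22Rv1 and 0.24 in PC3, and was chosen after its values were seen. TBCC, which triggers release of the finished dimer, was lower in both, at 6.27 FPKM in treated and 12.2 FPKM in untreated 22Rv1 and at 8.77 FPKM in treated and 13.9 FPKM in untreated PC3. TBCD was at 10.7 FPKM in treated and 16.01 FPKM in untreated PC3, a change of -0.55.

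The machinery of the mRNA feedback was measured in both lines. TTC5 was at 4.62 FPKM in treated and 4.94 FPKM in untreated 22Rv1, and at 3.92 FPKM in treated and 3.63 FPKM in untreated PC3. SCAPER was at 1.64 FPKM in treated and 2.14 FPKM in untreated 22Rv1, and at 2.88 FPKM in treated and 2.11 FPKM in untreated PC3. Of 12 genes of this list, 10 were below 0 in 22Rv1 (median -0.30) and 5 in PC3 (median 0.05, mean -0.01), beside 50.6% and 55.8% of all genes. Rescaling to equal sums gave medians of -0.49 in 22Rv1 and -0.04 in PC3, and removing the length trend gave -0.20 and 0.17. CNOT1, the scaffold of the CCR4-NOT complex, was at 29.1 FPKM in treated and 59.3 FPKM in untreated 22Rv1, a change of -1.002, and had a change of -0.43 in PC3. CNOT6, a deadenylase subunit, was at 12.5 FPKM in treated and 20.6 FPKM in untreated 22Rv1 and at 6.01 FPKM in treated and 10.8 FPKM in untreated PC3. CNOT6L had a change of -0.95 in 22Rv1, and CNOT3 a change of 0.60 in PC3.

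In the gamma-tubulin ring complex, MZT2B and AKAP9 had the widest changes in 22Rv1. MZT2A and MZT2B, near-identical MOZART genes, were at 58.1 and 56.6 FPKM in treated and 29.7 and 27.5 FPKM in untreated 22Rv1, and at 42.8 and 28.9 FPKM in treated and 32.3 and 19.6 FPKM in untreated PC3. MZT2A was chosen after its values were seen. AKAP9, which anchors the complex at centrosome and Golgi, had a change of -1.05 in 22Rv1 and -0.14 in PC3. MZT1 was at 8.05 FPKM in treated and 11.2 FPKM in untreated PC3. Of 13 genes, 6 were above 0 in 22Rv1 (median -0.12, mean 0.03) and 9 in PC3 (median 0.07), beside 49.4% and 44.2% of all genes. The 22Rv1 median was 0.02 with the length trend removed, and the PC3 median was -0.02 after rescaling to equal sums.

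Of 16 enzymes and partners that modify tubulin, 2 (SVBP and TTLL3) were at least 2-fold higher in treated 22Rv1, beside 3.48% of all genes. In PC3 0 were, beside 1.24%. The 22Rv1 changes of SVBP and TTLL3 lay within 1.96 counting errors of 2-fold. SVBP, the partner of the vasohibin detyrosinases, was at 6.58 FPKM in treated and 2.69 FPKM in untreated 22Rv1, and TTLL3, a glycylase, at 11.5 FPKM treated and 5.12 FPKM untreated. VASH1, a detyrosinase, was at 1.84 FPKM in treated and 4.64 FPKM in untreated PC3, and TTL, the ligase that restores the tyrosine, at 7.77 FPKM in treated and 14.5 FPKM in untreated PC3. The list had a median of -0.07 and a mean of 0.07 in 22Rv1, and a median of 0.02 and a mean of -0.09 in PC3. Rescaling moved the PC3 median to -0.07, and the length correction moved the 22Rv1 median to 0.05.

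Of 16 stabilisers and plus-end proteins measured in 22Rv1, 13 were below 0, beside 50.6% of all genes (median -0.19, or 0.04 with the length trend removed), led by MAP1B at 5.7 FPKM treated and 9.75 FPKM untreated and followed by CKAP2 with a change of -0.47. In PC3 10 of 18 were below 0, beside 55.8% of all genes (median -0.03, or 0.15 with the length trend removed). CLASP2, a rescue factor at plus ends, was at 6.78 FPKM in treated and 12.9 FPKM in untreated PC3, and MAP7D1 had a change of -0.68 there. Among 11 destabilisers and severing enzymes the median was 0.04 and the mean -0.17 in 22Rv1, and the median was -0.15 after rescaling to equal sums. In PC3 the median was -0.24. KIF2A, a depolymerising kinesin, was at 14.6 FPKM in treated and 31.02 FPKM in untreated 22Rv1. SPAST (spastin, which severs microtubules) was at 5.15 FPKM in treated and 8.54 FPKM in untreated 22Rv1 and at 5.43 FPKM in treated and 10.7 FPKM in untreated PC3, and KATNAL1, a katanin, had changes of -0.51 in 22Rv1 and -0.58 in PC3.

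No gene of these lists passed the shared limma test, in which the lowest adjusted p was 0.13 for MZT2B. With libraries rescaled to equal sums, MZT2B and PFDN5 were called higher, and CNOT1, CNOT6, AKAP9, KATNAL1, KIF2A, SPAST, TBCC, TTL, VASH1 and TUBD1 lower, with adjusted p-values from 0.0036 for CNOT1 to 0.047 for PFDN5 in limma. Among all 13971 genes tested with that scaling, 300 were called higher and 1234 lower. At an unadjusted p under 0.05, limma listed 7 of 13 folding genes, 2 of 12 feedback genes, 3 of 13 ring complex genes, 4 of 16 modifying enzymes, 1 of 18 stabilisers and 3 of 11 destabilisers. Among all 13980 genes 2587 were listed at that level.

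**Figure D5:**
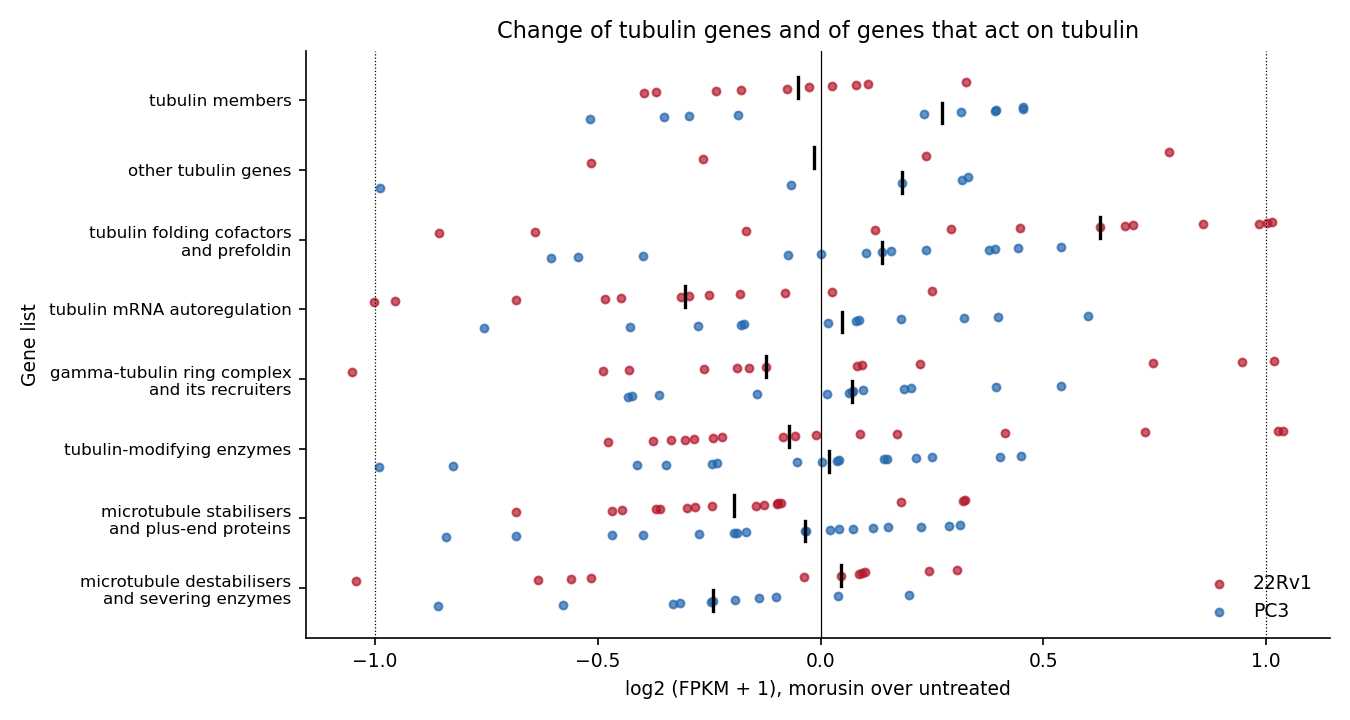
Log2 change (FPKM + 1, morusin over untreated) of every measured gene of 8 lists in 22Rv1 (red) and PC3 (blue), with a black bar at each median and dotted lines at 2-fold. The tubulin genes had medians of -0.05 in 22Rv1 and 0.27 in PC3, and the folding genes in 22Rv1 had the highest median, 0.63.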

How the data were processed

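RNA libraries of 22Rv1 and PC3 cells were made with a TruSeq RNA v2 kit and read as paired 150 base reads, per the labels' protocols. The authors deposited FPKM values per Ensembl gene. Per the submitters' processing notes, the tools and build were Trimmomatic, HISAT2, StringTie and GRCh38. Their versions and the annotation release are not stated in the sources used. FPKM is relative to each library's total, so abundant transcripts move all values, and reads of near-identical genes may be split by the counting.

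Members and lists were chosen with earlier results of these data known. All 10 members are named; from each list, genes with the 2 largest changes per line, any at 2-fold and TTC5 and SCAPER are named, with other tubulin genes at 1 FPKM or more and the 5 genes of nearest pattern. A gene chosen after its values were seen is said to be. All 132 listed symbols were found. Changes are log2(FPKM + 1) for genes at 1 FPKM or more in a library of the line, and limma 3.58.1 in R 4.3.3 used genes at 1 FPKM or more in at least 2 libraries, with a mean trend. The line terms pair the libraries by the labels. Tested on simulated data (noise SD 0.25, 13980 genes), limma called 50 of 50 genes at a log2 change of 2 and 32 of 50 at 1. The simulation gave every gene the same noise and both lines the same change, so these call rates need not hold for the real libraries. Nonzero changes smaller than 1, the range of all 10 tubulin genes in each line, were not simulated. Depth came from the spacing of low values in genes with a single exon and a length of 600 to 5000 bases (tolerance 1.5%). Annotation was GENCODE 29, with 1 principal transcript per gene, and Python 3.11.15, pandas 2.3.3, statsmodels 0.14.6 and biopython 1.88 were used. Nothing says whether libraries came from separate cultures. Alternatives were pseudocounts of 0.1 and 5, rescaling, median centring, quantile normalization, removal of a length trend, no filter, no variance trend and no line term. Rescaling and length correction of the medians of related gene lists were added after seeing the data. Some items are not reported here.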

Additional observations from a re-analysis of the deposited data

Results flagged for a closer look

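TUBB differed between the lines in the direction of its change with morusin. It was lower in treated 22Rv1, with a change of -0.37, and higher in treated PC3, with a change of 0.32, so that the 22Rv1 change minus the PC3 change was -0.69. Both changes were larger than 1.96 counting errors, and with 1 library per group the difference was not tested. Dose and medium differ with the line and cannot be told apart from it. The signs held under both pseudocounts, rescaling, median centring and length correction, and 2.5% of TUBB windows have a copy in another gene. Quantile normalization was run only in the shared limma fit, where the TUBB effect was -0.37 against -0.03 in the main fit. The sign in each line was not computed under it. By rank among all genes, TUBB was at 30 in treated and 31 in untreated PC3, and at 100 in treated and 49 in untreated 22Rv1.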

How the results depend on the processing

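Rescaling to equal sums moved the median change of the tubulin genes to -0.21 in 22Rv1 and 0.18 in PC3, and the median difference between lines to -0.21 (main value -0.11). It moved the summed alpha and beta log2 ratios to -0.42 and -0.45 in 22Rv1 and to -0.34 and 0.067 in PC3, and it left the alpha to beta ratios as they were, by construction. Removing the length trend gave medians of -0.22 in 22Rv1 and -0.24 for the difference between lines. Adding all other tubulin rows gave a summed alpha log2 ratio of -0.22 in PC3. With rescaling, 1 tubulin gene (TUBA1A) was called lower in the shared limma test, in which 300 genes were called higher and 1234 lower, against 49 and 33 without rescaling, and the prior degrees of freedom were 50.8 against 7.95. Over all genes the higher and lower calls were 83 and 58 with quantile normalization, 18 and 15 with a pseudocount of 5, 29 and 24 without the variance trend and 0 and 0 without the filter (2323 genes at an unadjusted p under 0.05). Without the filter on low genes, 0 tubulin genes were called higher and 1 lower in the line term, over 30922 genes tested. The fit with no replicate block, that is without the line term, called 0 tubulin genes and 0 of 13980 genes in limma, with 54 genes at an unadjusted p under 0.05. In 22Rv1, the changes of TUBA1C, TUBB2A and TUBB6 changed sign with rescaling, and those of TUBB2A and TUBB6 with the length trend removed. The sign changes of the medians of related gene lists stand beside those lists. The medians over the 10 genes, the family sums and the counts of called tubulin genes kept their direction under the alternatives run, apart from the calls given above. Leaving out a library leaves no test, since each group has 1. Counting depth limits TUBB2B and TUBB2A in 22Rv1 most, with counting errors of 0.22 and 0.15.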

Other observations

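Genes whose 4 levels most resembled the summed tubulin level were sought among 10441 named genes at 5 FPKM or more in a library, by the distance between centred log2(FPKM + 1) values over the 4 libraries. The closest were GLE1, an mRNA export factor, LRRC8D, a subunit of volume-regulated anion channels, RNF20, a ubiquitin ligase of histone H2B, TDP1, a DNA repair phosphodiesterase, and MFSD1, a lysosomal transporter, at distances of 0.033 to 0.049. GLE1 was at 18.8 FPKM in treated and 22.3 FPKM in untreated 22Rv1, and at 17.6 FPKM in treated and 18.4 FPKM in untreated PC3. The likeness is a description of these 4 libraries.

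STMN1 (stathmin, which sequesters tubulin dimers) was at 396 FPKM in treated and 320 FPKM in untreated 22Rv1, and at 122 FPKM in treated and 119 FPKM in untreated PC3. It was the most abundant of the destabilisers in all 4 libraries. STMN3, a relative best known from neurons, was at 77.4 FPKM in treated and 72.1 FPKM in untreated 22Rv1, and at 6.46 FPKM in treated and 7.82 FPKM in untreated PC3. Both were chosen after their values were seen.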
